A study of Homo sapiens with 48 samples.

Results

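Of the 19253 genes in the deposited expression table, 10 were followed here: the BMP ligand genes BMP4, BMP2 and BMP7, and 7 genes that BMP signalling switches on within the same cell, BAMBI, ID1, ID2, ID3, ID4, SMAD6 and SMAD7. They were chosen by gene symbol, with earlier results of these data known. All 10 were present and were read in every one of the 48 libraries. The libraries came from H9, an established line of human embryonic stem cells that was unmodified according to its labels. The cells were kept as a monolayer in E6, a defined medium, and a test compound was present throughout 8 days of differentiation. The groups were undifferentiated cells of day 0 (D0), the day 8 solvent control (DMSO, the usual carrier of test compounds), 15 day 8 compounds, 6 of those compounds again with S9, and the solvent control with S9 (DMSO_S9). Each of the 24 groups had 2 libraries.

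The labels name the compound families NEOs, OPEs and SPAs without assigning compounds to them. From the abbreviations alone, and so as an assumption, 3 compounds were read as NEO (ACE, CYC, IMI), 3 as OPE (TDCIPP, TEP, TPHP) and 9 as SPA (BHT, BHT_CHO, BHT_COOH, BHA, TBHQ, DTBP, DG, AO_2246, AO168_O). The labels state no dose and no batch, and they do not explain S9, a term that in toxicology usually means a liver fraction that metabolises a test compound. Because no batch is given, family and culture batch cannot be told apart, and neither can compound and batch in a comparison with DMSO. Nothing in the labels says that the 2 libraries of a group came from separate cultures, so p-values measure the spread between these libraries, which may be technical.

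BMP ligands are secreted proteins that bind paired receptors on the cell surface. The receptors phosphorylate SMAD1, SMAD5 and SMAD9, which enter the nucleus with SMAD4 and activate target genes. Among the first targets are the ID genes, whose proteins bind E proteins and keep them off DNA, and a set of brakes on the pathway itself: BAMBI, a pseudoreceptor without a kinase domain, and the inhibitory SMADs, SMAD6 and SMAD7. In early human ectoderm, low BMP signalling favours neural fate, and high BMP signalling favours surface ectoderm or, in stem cell cultures, amnion-like cells.

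Library totals ran from 17918867 to 20096130 counts. Both DMSO_S9 libraries stood apart: their median correlation with the other day 8 libraries was 0.921 and 0.923, against 0.957 for the next lowest and 0.987 for the highest. The summed level of 6 pluripotency markers was 835 to 841 TPM (a level scaled for transcript length and library total) in DMSO_S9 and at least 1660.3 TPM in every other day 8 library, so results against DMSO_S9 rest on 2 unusual libraries. At day 0 that sum was 5892 to 6027 TPM. Day 8 cells retained it at 1660.3 to 3214 TPM outside DMSO_S9, and the sum of 7 mesoderm and endoderm markers was at most 6.4 TPM in all 48 libraries.

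Promoters were available for 8 of the 10 genes: each had a sequence in the RefSeq table of build GRCh38.p14, and BMP2 and BMP7 had none there. The 250 bases before each start were searched for 2 SMAD-binding motifs, GTCTAGAC (the SMAD palindrome) and GGCGCC (a GC-rich site bound by BMP SMADs). Each is its own reverse complement, so 1 search covered both strands, and no match of one motif overlapped a match of the other. The 8 genes had 12 windows, and windows of 3 genes held a match: GTCTAGAC in 1 gene and GGCGCC in 2. Of all 27305 genes with a window, 0.231% held GTCTAGAC and 19.0% held GGCGCC. The windows with a match are shown, a selection made after their letters were read, and capitals mark the motif.
SMAD6: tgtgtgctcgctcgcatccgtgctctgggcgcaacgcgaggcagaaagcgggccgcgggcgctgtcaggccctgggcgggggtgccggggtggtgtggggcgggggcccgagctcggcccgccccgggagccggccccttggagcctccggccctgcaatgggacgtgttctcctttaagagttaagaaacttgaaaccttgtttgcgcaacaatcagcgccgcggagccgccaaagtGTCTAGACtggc
BAMBI: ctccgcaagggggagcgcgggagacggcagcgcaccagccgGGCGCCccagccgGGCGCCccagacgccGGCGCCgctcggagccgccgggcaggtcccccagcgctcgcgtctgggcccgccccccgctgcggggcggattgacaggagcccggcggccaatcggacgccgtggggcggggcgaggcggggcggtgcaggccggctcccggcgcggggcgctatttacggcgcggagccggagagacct
BMP4: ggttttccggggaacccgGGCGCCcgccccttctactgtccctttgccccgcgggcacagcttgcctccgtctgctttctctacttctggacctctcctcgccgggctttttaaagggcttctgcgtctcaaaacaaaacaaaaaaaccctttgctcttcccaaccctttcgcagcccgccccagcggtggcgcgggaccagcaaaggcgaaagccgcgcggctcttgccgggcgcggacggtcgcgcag
The SMAD6 window is chr15:66701986-66702235 on the plus strand and holds the palindrome 12 to 5 bases before the start. That motif was found in 64 of 35116 promoter windows of the same length, or 0.182%. The BAMBI window is chr10:28677271-28677520 on the plus strand and holds 3 copies of GGCGCC. At least 1 copy was found in 16.4% of all windows and at least 3 copies in 0.527%. The BMP4 window is chr14:53955051-53955300 on the minus strand, 1 of 3 annotated starts, and holds 1 copy of GGCGCC. No copy of either motif was in the windows of ID1, ID2, ID3, ID4 or SMAD7. A match is a description of letters, and binding was not measured.

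During 8 days of differentiation in solvent, 8 of the 10 genes changed, and 7 of these rose. Differences were tested with edgeR's quasi-likelihood test on all genes, and a Benjamini-Hochberg adjusted p under 0.05 counted as changed. Of the 16211 genes tested in this comparison, 58.2% changed, so the count is to be read against a high background. In bulk RNA, fewer cells of a type and less RNA per cell cannot be told apart. The median log2 fold change was 1.12 over the 10 genes and 0.04 over all genes. Of the cell type markers, 5 of 6 for pluripotency fell and 1 rose, and 6 of 7 for neural ectoderm rose. Of 7 for surface ectoderm and placode 4 rose and 1 fell, while their summed level was 1981 to 2290 TPM at day 0 and 1899 to 2239 TPM in DMSO. Of 6 tested for mesoderm and endoderm 3 fell and 1 rose, of 4 for neural crest 2 rose and 1 fell, and of 5 tested for amnion and trophoblast 0 passed. The part of these cells in the result was not tested.

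Among the ligands, BMP4 stood at 13.8 and 13.9 TPM at day 0 and at 42.7 and 50.3 TPM in DMSO. The groups did not overlap, and BMP4 rose by 1.51 on the log2 scale (SE 0.33, edgeR adjusted p = 0.000311). BMP7 rose from 14.3 and 16.4 TPM to 27.7 and 28.4 TPM (log2 fold change 0.58, SE 0.14, edgeR adjusted p = 0.00102). The log2 ratio of its TPM was larger, at 0.87, and over all genes at 1 TPM or more, TPM ratios stood a median of 0.29 above the fitted ones in this comparison. BMP2 was the scarcest ligand, with 3.27 and 2.32 TPM at day 0 and 3.08 and 4.66 TPM in DMSO, and these ranges overlapped (log2 fold change 0.17, edgeR adjusted p = 0.691).

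The ID genes rose together. ID1 was the most abundant of the 10 genes, at 301 and 295 TPM at day 0 and 783 and 723 TPM in DMSO. ID4, which was at 5.71 and 3.57 TPM at day 0, reached 85.4 and 90.1 TPM, a log2 fold change of 3.95 (SE 0.32, edgeR adjusted p = 1.59e-11). All 4 ID genes had separate groups. The share of all genes whose day 0 and DMSO libraries were separate was not computed, so this count has no background to be read against. ID2 rose by 3.39 (SE 0.28) on the log2 scale, from 17.5 and 11.5 TPM to 211 and 157 TPM. ID3 rose by 1.17 (SE 0.29) and ID1 by 1.06 (SE 0.20).

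The brakes divided. SMAD6, which blocks receptor signalling by BMP in particular, rose from 1.75 and 2.46 TPM to 11.1 and 11.9 TPM (log2 fold change 2.05, SE 0.30, edgeR adjusted p = 1.1e-06). SMAD7, which inhibits both the BMP and the TGF-beta branch, fell by 1.33 on the log2 scale (SE 0.23, edgeR adjusted p = 1.66e-05), from 17.5 and 18.7 TPM to 7.70 and 9.49 TPM. BAMBI stood at 30.4 and 29.4 TPM at day 0 and 18.3 and 13.8 TPM in DMSO. Its libraries did not overlap, but the difference of -1.18 (SE 0.56) did not pass the test (edgeR adjusted p = 0.073).

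**Figure D1:**
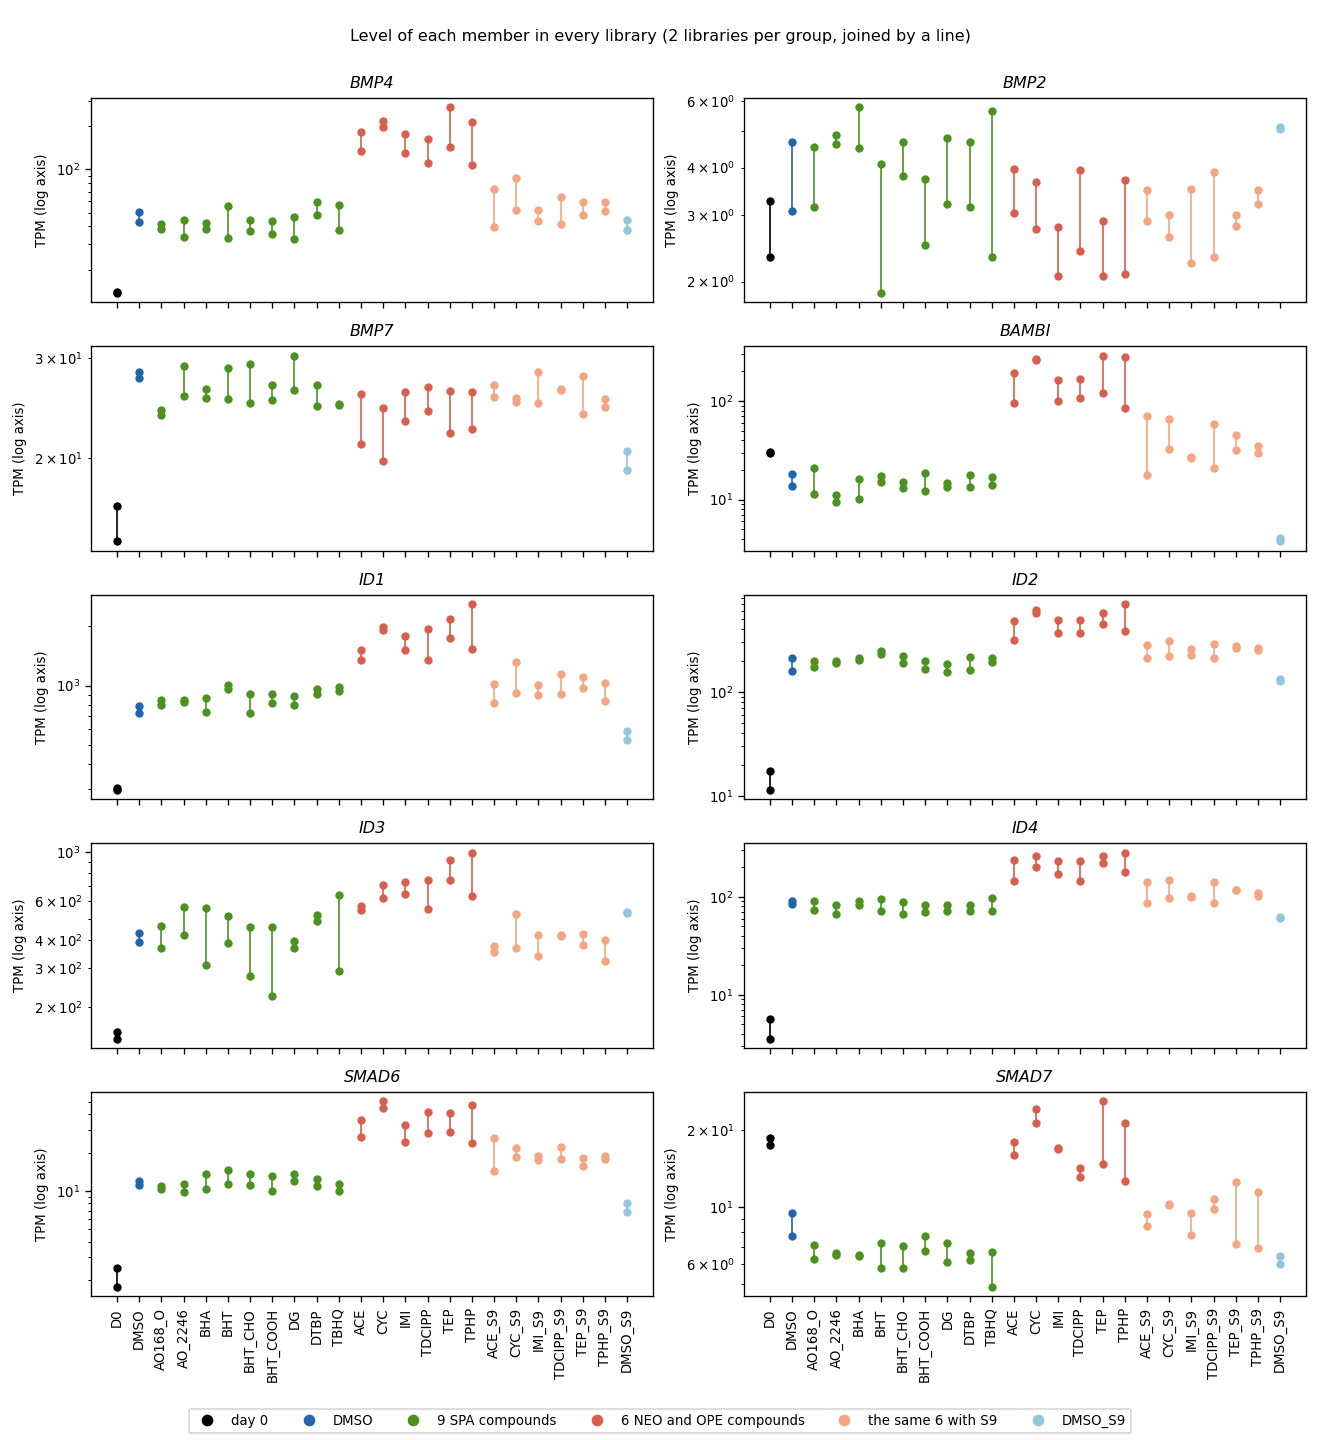
TPM of the 10 genes in each of the 48 libraries on a log axis, with the 24 groups along the horizontal axis and both libraries of a group joined by a line. BAMBI lies between 85.6 and 291 TPM in the 12 NEO and OPE libraries and between 9.46 and 20.7 TPM in the 18 SPA libraries, and DMSO_S9 is lowest at 3.76 to 4.08 TPM.

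With the 6 NEO and OPE compounds, the BMP4 ligand, the brakes and most ID genes were higher than in DMSO. Of 60 tests (10 genes in 6 compounds), 44 passed, 43 of them upward. ACE had 7 genes called, where 8.56% of all 16115 genes tested changed, and IMI had 7 against 6.21%. TDCIPP had 6 called (9.07% of all genes), and TPHP (11.3%), TEP (12.7%) and CYC (29.6%) had 8 each. The 6 comparisons share the same 2 DMSO libraries and are not independent of each other. The median log2 fold change of the 10 genes ran from 0.94 in ACE to 1.36 in TPHP, while that of all genes was within 0.01 of 0 in each compound.

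BAMBI had the widest change. It was at 18.3 and 13.8 TPM in DMSO, and with CYC at 269.5 and 263 TPM, TEP at 291 and 121 TPM, TPHP at 283 and 85.6 TPM, ACE at 96.7 and 192 TPM, TDCIPP at 108 and 169 TPM, and IMI at 99.4 and 163 TPM. Every one of these 12 libraries exceeded both DMSO libraries, and the lowest, in TPHP, shared its group with one of the highest. The log2 fold change ran from 2.95 in IMI to 3.95 in CYC (SE 0.58 to 0.60), or 7.72-fold to 15.5-fold, and passed the test in all 6 compounds (largest edgeR adjusted p = 0.00404).

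BMP4 was also higher with the same compounds, at a lower fold. It stood at 197 and 218 TPM with CYC, 272 and 143 TPM with TEP, 214 and 107 TPM with TPHP, 133 and 182 TPM with ACE, 111 and 163 TPM with TDCIPP, and 130.3 and 176 TPM with IMI. None overlapped the 42.7 and 50.3 TPM of DMSO. The log2 fold change ran from 1.52 in TDCIPP to 2.05 in TEP (SE 0.32 to 0.33; largest edgeR adjusted p = 0.00442).
BMP7 did not share this pattern. It changed in CYC alone, where it fell by 0.44 on the log2 scale (SE 0.14, edgeR adjusted p = 0.02), from 27.7 and 28.4 TPM to 19.7 and 24.5 TPM, and the other 5 differences were between -0.36 and -0.16. The call in CYC was lost without CYC replicate 1 (-0.30) or DMSO replicate 1 (-0.39). BMP2 passed in no compound (log2 differences of -0.73 to -0.24, smallest edgeR adjusted p = 0.209).

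ID1, ID2 and ID4 passed the test in all 6 compounds, by 0.82 to 1.39, 1.01 to 1.58 and 1.02 to 1.40 on the log2 scale. ID1 reached 2589 TPM in 1 TPHP library, its highest level in the series, and its lowest NEO or OPE library, in ACE, stood at 1346 TPM. ID3 passed in TEP (0.95, SE 0.29, edgeR adjusted p = 0.031) and TPHP (0.92, SE 0.29, edgeR adjusted p = 0.0402) and in no other compound, with differences of 0.34 to 0.95 over the 6. Both ID3 calls were lost without either DMSO library, and also without TEP replicate 1 (0.77) or TPHP replicate 1 (0.59). SMAD6 passed upward in all 6, by 1.23 to 1.92, and SMAD7 in 5, the exception being TDCIPP at 0.72 (edgeR adjusted p = 0.0567). SMAD7 thus stood at 12.7 to 25.9 TPM in these 12 libraries, against 7.70 and 9.49 TPM in DMSO and 17.5 and 18.7 TPM at day 0.

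These calls rest on few libraries. The median correlation with other day 8 libraries was 0.9665 for ACE replicate 2 and 0.976 for replicate 2 of IMI and of TDCIPP. It was 0.967 for TPHP replicate 1 and 0.982 to 0.983 for the partners of these libraries. Both CYC libraries (0.957 and 0.9615) and TEP replicate 1 (0.964) had lower values still, and TEP replicate 2 stood at 0.979. The part of this distance in the calls was not tested. Without ACE replicate 2 the 7 calls in ACE became 0, without IMI replicate 2 the 7 in IMI became 0, without TDCIPP replicate 2 the 6 in TDCIPP became 0, and without TPHP replicate 1 the 8 in TPHP became 1. Without DMSO replicate 1, ACE and IMI had 2 calls each and TDCIPP 4, and without DMSO replicate 2, ACE had 3 and IMI 4. CYC held 7 to 8 calls and TEP 6 to 8 when any 1 library was left out. With only TPHP and DMSO in the fit, the 8 calls in TPHP became 1, with edgeR adjusted p of 0.0538 to 0.141 for the other 7. In BAMBI the log2 fold change stayed between 2.37 and 4.24 across all of these fits.

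**Figure D2:**
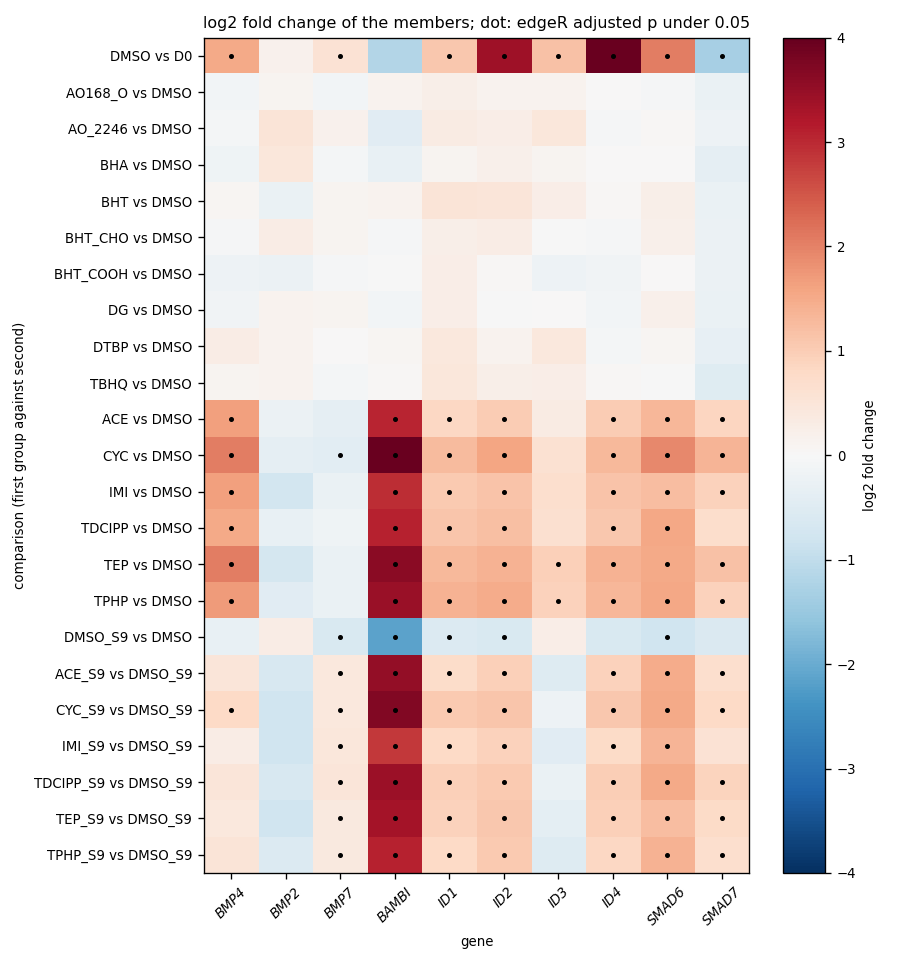
log2 fold change of the 10 genes (columns) in 23 comparisons (rows), red for higher and blue for lower in the first group, with a dot where the edgeR adjusted p was under 0.05. The 9 SPA rows hold no dot, the 6 NEO and OPE rows hold 44, and the 6 rows with S9 hold 42.

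In the 9 SPA compounds none of the 10 genes passed the test. Of 90 tests, 0 passed by edgeR and 0 by DESeq2, 4 had an unadjusted p under 0.05 (ID1 in BHT, DTBP and TBHQ, and ID2 in BHT, named after their values were seen), and the smallest edgeR adjusted p was 0.139, for ID1 in BHT. Of all 16115 genes, 0.0% changed in AO168_O, 10.4% in AO_2246, 0.00621% in BHA, 4.57% in BHT, 2.15% in BHT_CHO, 0.00621% in BHT_COOH, 5.46% in DG, 3.07% in DTBP and 0.161% in TBHQ. The 95% intervals were wide for BAMBI, reaching from -1.69 to 1.35 over the 9 compounds, and narrower for BMP7, from -0.38 to 0.46. The differences of ID1 were 0.12 to 0.52 and those of SMAD7 -0.47 to -0.21 over the 9, with none passing, and all 9 use the same DMSO libraries. BHT and its forms BHT_CHO and BHT_COOH, read as the aldehyde and the acid, gave 0 calls each. Their doses are not given, so they were not tested against each other.

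The families were then set against each other without the DMSO libraries, as the mean of the 6 NEO and OPE compounds against the mean of the 9 SPA compounds. In this and later comparisons of means, SEs, intervals and p-values come from the spread between the 2 libraries of each group. The spread between compounds of a family does not enter them, so they describe these compounds only. All 10 genes passed, 8 upward and 2 downward, and 66.5% of all genes passed as well, so the count by itself is not a result about these genes. BAMBI ranged from 85.6 to 291 TPM (median 166) in the 12 NEO and OPE libraries and from 9.46 to 20.7 TPM (median 14.4) in the 18 SPA libraries. It rose by 3.40 on the log2 scale (SE 0.21, edgeR adjusted p = 1.71e-13), or 10.6-fold. BMP4 ranged from 107 to 272 TPM (median 169) against 32.6 to 59.2 TPM (median 41.9), a log2 fold change of 1.80 (SE 0.12, edgeR adjusted p = 5.88e-13).

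Of the ID genes, ID4 rose most, by 1.24 (SE 0.10), from 66.3 to 97.6 TPM in SPA to 143 to 282 TPM. ID2 rose by 1.10 (SE 0.09), ID1 by 0.84 (SE 0.07) and ID3 by 0.53 (SE 0.11). ID3 overlapped between the families, at 545 to 991 TPM against 225 to 639 TPM. Both inhibitory SMADs rose, SMAD6 by 1.43 (SE 0.10) and SMAD7 by 1.28 (SE 0.09). The ligands BMP2 and BMP7 fell, by 0.60 (SE 0.13) and 0.31 (SE 0.05), and their libraries overlapped. TPM ratios stood a median of 0.18 above the fitted ones over all genes here, and the log2 TPM ratio of BMP7 was -0.13. No called difference of the 10 genes had another sign in TPM in any comparison of groups.
A stricter description used library overlap. In 7 of the 10 genes (BMP4, BAMBI, ID1, ID2, ID4, SMAD6 and SMAD7) no NEO or OPE library overlapped any SPA library in CPM, against 7.82% of all genes. CPM is counts scaled to the library total, here adjusted by TMM as in the fits. Over 30 fits that each left out 1 library, BAMBI stayed between 3.23 and 3.51. Each of these fits kept the partner library, and none left out a whole compound.

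Between OPE and NEO compounds, 0 of the 10 genes passed by edgeR and 0 by DESeq2, with 0 at an unadjusted p under 0.05, and 0.00621% of all genes passed. The 95% interval of the difference was -0.38 to 0.36 for BMP4 and -0.55 to 0.67 for BAMBI on the log2 scale. A missed threshold does not show that both families acted alike. The intervals concern the means of these compounds and leave out the spread between compounds, so they do not bound a difference between families.

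Markers of other cell types moved with the difference between the NEO and OPE and the SPA compounds, in which 66.5% of all genes were called. The summed level of 7 surface ectoderm and placode markers was 4649 to 8142 TPM in NEO and OPE libraries against 1517 to 3006 TPM in SPA libraries, and 6 of 7 rose. Day 0 stem cells already had 1981 to 2290 TPM in this sum, so it is not specific to surface ectoderm. The sum of 7 neural ectoderm markers was 428 to 950.0 TPM against 934 to 1411 TPM, and 7 of 7 fell. The sum of 6 amnion and trophoblast markers was 33.8 to 350 TPM against 7.44 to 12.98 TPM, and 5 of 5 tested rose. Among those, HAND1 was at 10.9 to 166 TPM against 0.12 to 0.93 TPM, while CDX2 was at or near 0 (at most 0.24 TPM). All 4 neural crest markers fell, from 31.2 to 39.5 TPM in sum to 17.4 to 31.6 TPM. Of 6 pluripotency markers 4 fell and 1 rose, with sums of 1855 to 2708 TPM against 1660.3 to 3161 TPM. Of 4 mesoderm and endoderm markers tested 2 rose and 1 fell, with sums of 2.32 to 6.40 TPM against 1.52 to 3.33 TPM. TFAP2A, GATA3 and DLX5 stand on both the surface ectoderm list and the BMP target list. The part of these cell types in the result was not tested.

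**Figure D3:**
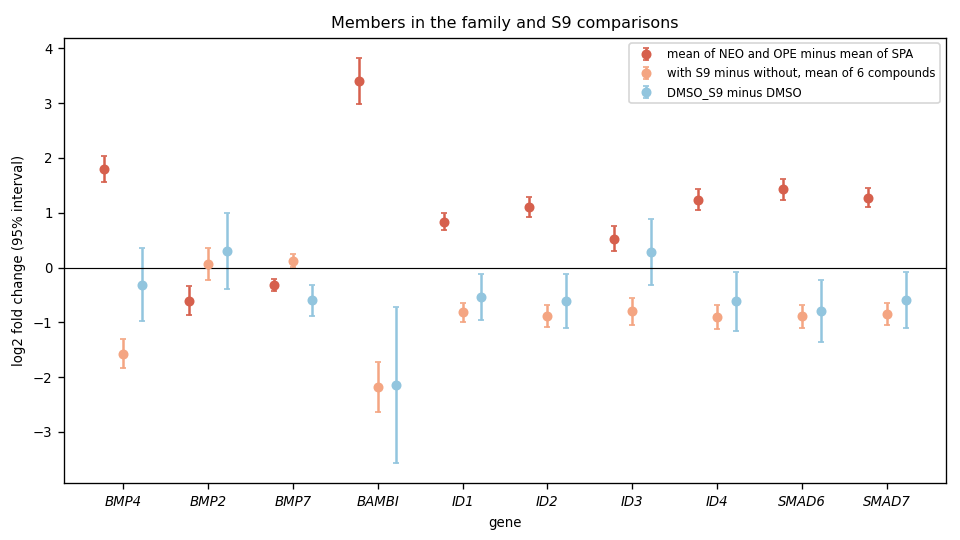
log2 fold change with 95% interval of the 10 genes for NEO and OPE against SPA compounds, for the 6 compounds with S9 against the same 6 without, and for DMSO_S9 against DMSO. BAMBI has the largest value in each, at 3.40, -2.18 and -2.14, and for BMP7 and ID3 the 2 S9 values lie on opposite sides of 0.

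With S9, the same 6 compounds gave lower levels of all the feedback genes. Over the mean of the 6 compounds, 8 of the 10 genes fell and 0 rose, against 41.3% of all genes changed. BMP4 was at 107 to 272 TPM (median 169) without S9 and at 39.7 to 86.2 TPM (median 51.9) with it, with no overlap, and fell by 1.57 on the log2 scale (SE 0.13, edgeR adjusted p = 4.81e-09). BAMBI was at 17.8 to 70.3 TPM (median 32.3) with S9, below every library without S9, and fell by 2.18 (SE 0.22, edgeR adjusted p = 3.32e-08).
The other 6 falls ran from 0.79 for ID3 to 0.90 for ID4. SMAD6 stood at 14.3 to 26.1 TPM with S9 and 23.7 to 50.5 TPM without, and these ranges overlapped. ID4 overlapped as well, at 86.1 to 150 TPM with S9 and 143 to 282 TPM without. BMP2 differed by 0.07 and BMP7 by 0.12 (edgeR adjusted p = 0.746 and 0.0831). The surface ectoderm sum with S9 was 2228 to 3740 TPM and all 7 of its markers fell, while 6 of 7 neural ectoderm markers rose. The amnion and trophoblast sum was 6.51 to 33.9 TPM, and 5 of 5 tested fell. Of 6 pluripotency markers 4 rose and 1 fell, of 4 for neural crest 2 rose, and of 4 tested for mesoderm and endoderm 2 fell. The part of these cells in the fall was not tested.

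In the solvent alone, S9 went with changes in 45.7% of all genes, and 5 of the 10 genes passed, a share near that background. All 5 fell: BAMBI, from 18.3 and 13.8 TPM to 4.08 and 3.76 TPM (-2.14, SE 0.70, edgeR adjusted p = 0.0135), SMAD6 (-0.79), ID2 (-0.61), BMP7 (-0.60) and ID1 (-0.54). BMP4 was at 37.8 and 44.1 TPM in DMSO_S9, overlapping DMSO, and differed by -0.31 (SE 0.32, edgeR adjusted p = 0.447). ID3 was at 532 and 538 TPM, above both DMSO libraries, with a difference of 0.28 that did not pass (edgeR adjusted p = 0.45). All 6 pluripotency markers fell in the same comparison. Of 7 neural ectoderm markers 2 rose and 2 fell, of 7 for surface ectoderm 2 rose, of 4 for neural crest 2 rose and 1 fell, of 5 tested for amnion and trophoblast 1 rose, and of 4 tested for mesoderm and endoderm 1 fell. The part of these cells in the result was not tested. The 5 calls became 1 without DMSO replicate 1 or without DMSO_S9 replicate 1, and 2 without DMSO_S9 replicate 2. They became 9 with only DMSO and DMSO_S9 in the fit and 7 with the replicate block.

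Against DMSO_S9, 42 of 60 tests passed in the 6 compounds with S9, all upward. The genes called were 7 in ACE_S9 (48.5% of all genes changed), 8 in CYC_S9 (50.4%), 6 in IMI_S9 (49.5%), 7 in TDCIPP_S9 (50.6%), 7 in TEP_S9 (50.6%) and 7 in TPHP_S9 (50.4%). BAMBI passed in all 6, by 2.81 to 3.70 on the log2 scale. BMP4 passed in CYC_S9 alone (0.81, SE 0.32, edgeR adjusted p = 0.038), and that call was lost without CYC_S9 replicate 2 (0.39) or either DMSO_S9 library (0.71 and 0.91). BMP7, which passed upward in no compound without S9, did so in all 6 (0.39 to 0.50), but without DMSO_S9 replicate 1 it passed in TDCIPP_S9 alone. The 7 calls in TPHP_S9 became 4 without either DMSO_S9 library, the 7 in ACE_S9 became 4 without ACE_S9 replicate 2, and the 8 in CYC_S9 became 5 without CYC_S9 replicate 2.
The test of whether the S9 difference was unequal in compounds and in solvent called 3 of the 10 genes, against 50.9% of all genes. The S9 difference in compounds minus that in solvent was -1.26 for BMP4 (SE 0.35, edgeR adjusted p = 0.00397), -1.07 for ID3 (SE 0.32, edgeR adjusted p = 0.00629) and 0.73 for BMP7 (SE 0.15, edgeR adjusted p = 3e-04). For BAMBI it was -0.04 with a 95% interval of -1.65 to 1.57, so a difference of several fold in either direction was not detectable. Over 28 fits without 1 library each, BMP4 stayed at -1.36 to -1.155, ID3 at -1.12 to -1.02 and BMP7 at 0.68 to 0.77. Without 1 DMSO_S9 library the other remains, and both stood apart, so these fits cannot show the dependence on that control.

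**Figure D4:**
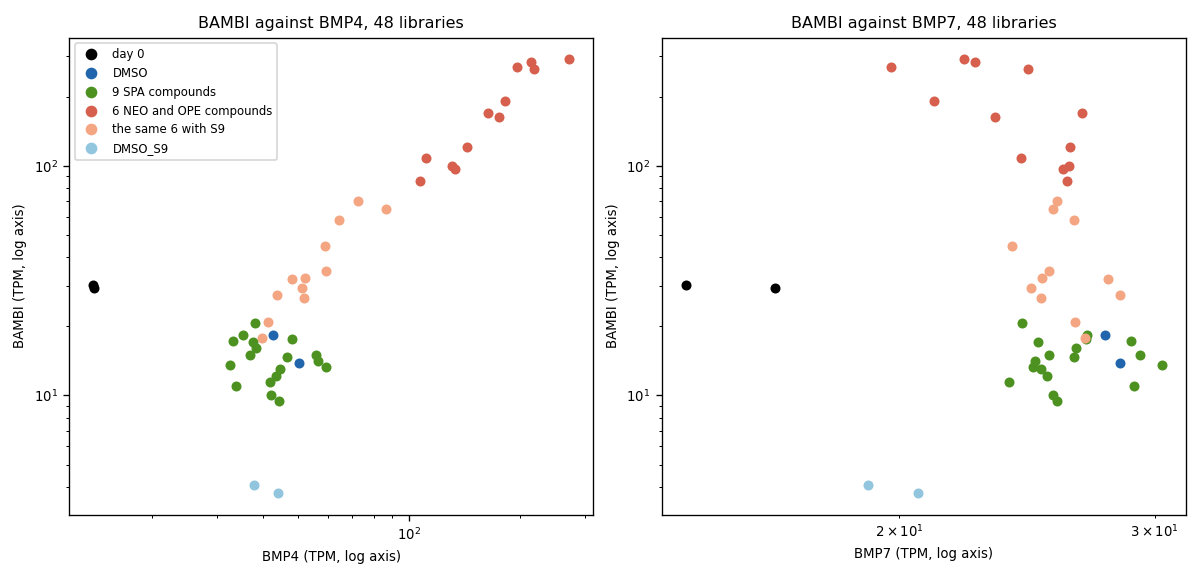
BAMBI against BMP4 (left) and against BMP7 (right) in TPM on log axes, 1 point per library and 48 in all. NEO and OPE libraries lie at upper right on the left panel, most libraries of the same compounds with S9 lie between them and the SPA libraries, and DMSO_S9 lies lowest at 3.76 and 4.08 TPM of BAMBI.

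Across the 23 groups of day 8, most of the feedback genes moved in step. Pearson's r of group means on the log2 scale was 0.99 between BAMBI and SMAD6, 0.98 between BAMBI and ID4, 0.97 between ID1 and ID2, and 0.94 between BAMBI and BMP4. ID3 followed BAMBI less closely (0.59), and BMP2 and BMP7 ran the other way (-0.74 and -0.40). These are descriptions over groups that share a design and fall into separate sets of compounds, so they carry no test.
When day 8 groups were ranked by mean level, neighbouring groups could rarely be separated. Groups further apart could be, such as the NEO and OPE against the SPA groups for BMP4 and BAMBI. Such overlaps were not counted over all genes. For BMP4, 21 of 22 neighbouring groups overlapped, and the only gap lay below TDCIPP (137 ± 36.8 TPM, SD, n = 2), the lowest of the NEO and OPE groups. For BAMBI 18 of 22 overlapped, with gaps below IMI (131 ± 44.9 TPM), TPHP_S9, IMI_S9 and AO_2246, the last standing above DMSO_S9 alone. For BMP7 all 22 overlapped.

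Libraries of 1 compound also differed together. In all 6 NEO and OPE groups, ID1 and ID2 were higher in the library in which BAMBI was higher, and BMP4, ID3, ID4, SMAD6 and SMAD7 were so in 5 of 6. BMP7 was so in 1 of 6. In the 6 groups with S9, ID1 and ID2 were so in 6, BMP4, ID3, ID4 and SMAD7 in 5, SMAD6 in 4 and BMP7 in 3. The share of all genes that were higher in the same library as BAMBI was not computed. In TPHP, BAMBI differed 3.31-fold between the 2 libraries. In the 9 SPA groups the pattern was another one: BMP4, ID3 and ID4 were higher in replicate 2 in 9 of 9 groups and BAMBI in 1 of 9, while BMP7 was higher in replicate 1 in 9 of 9. What a shared replicate number means is not given in the labels.

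The genes whose group means most resembled BMP4 among 14326 genes with a mean CPM of at least 1 were MSX2 (r = 0.99), SMAGP (0.98) and SH3BP5 (0.97). For BAMBI they were STOM, USP43 and SOCS2 (0.995, 0.993 and 0.992), and for SMAD6 IRX3, IRX5 and STOM (0.99 each). ID1 was nearest to UBE2F, ID2 and GSTO1, ID2 to GATA5, ID4 and YTHDF1, and ID4 to YTHDF1, BAMBI and FREM1. SMAD7 was nearest to DAPK1, FREM1 and KCTD12. ID3 and BMP2 had looser neighbours, led by SLC9A3R1 (0.90) and RHOH (0.91), and BMP7 was nearest to AHCY, RUVBL2 and AURKB (0.96 to 0.97).

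The rest of the pathway was read from a list of 46 genes in 6 roles. Between NEO and OPE and SPA compounds, 44 were tested, 17 rose and 13 fell, with a median of 0.06 against 0.01 for all genes. With 66.5% of all genes called here, the pathway's share of calls is near the background, and the counts by role that follow are to be read against it. Among 8 other ligands, GDF6 rose by 3.38 (SE 0.30, edgeR adjusted p = 1.6e-10), from 0.10 to 0.66 TPM in SPA to 1.52 to 12.9 TPM in NEO and OPE libraries, whereas BMP6 fell by 0.77. BMP5 passed downward too (edgeR adjusted p = 0.0164), but at 0.00 to 0.16 TPM against 0.00 to 0.26 TPM it is near the counting floor and its fold is not given. Of 9 receptors and co-receptors 5 rose and 3 fell: the receptors BMPR2, ACVR1 and BMPR1A rose by 0.66, 0.60 and 0.47, and the co-receptor RGMA fell by 0.85. All 4 signal-transducing SMADs rose, SMAD9 by 1.48 (SE 0.15), SMAD1 by 0.42, SMAD5 by 0.25 and SMAD4 by 0.06.
Of 11 secreted antagonists tested, 7 fell and 1 rose, against the same 66.5% of all genes called. NBL1 fell by 1.95, GREM1 by 1.29 and CHRDL1 by 0.49, while BMPER, which can hold back or promote BMP signalling, rose by 1.24. NBL1 was at 0.00 to 2.74 TPM in NEO and OPE libraries against 1.52 to 7.40 TPM in SPA libraries. These ranges overlapped, as did those of GREM1, CHRDL1 and BMPER. Of 5 intracellular brakes, the ubiquitin ligase genes SMURF2 and SMURF1 rose, by 0.30 and 0.14. Among 7 other transcription targets, 4 rose and 1 fell: GATA3 rose by 4.10 (SE 0.21), TFAP2A by 3.99 (SE 0.25), MSX2 by 2.24 (SE 0.18) and MSX1 by 1.69 (SE 0.23). Of the 3 E proteins that ID proteins bind, TCF3 passed with a fitted difference of -0.12, but its direction depends on the scale: the log2 ratio of its TPM was 0.05. The others did not pass. The receptor list's RGMB, counted above as a fall, turned in the same way (-0.14 fitted and 0.05 in TPM).

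**Figure D5:**
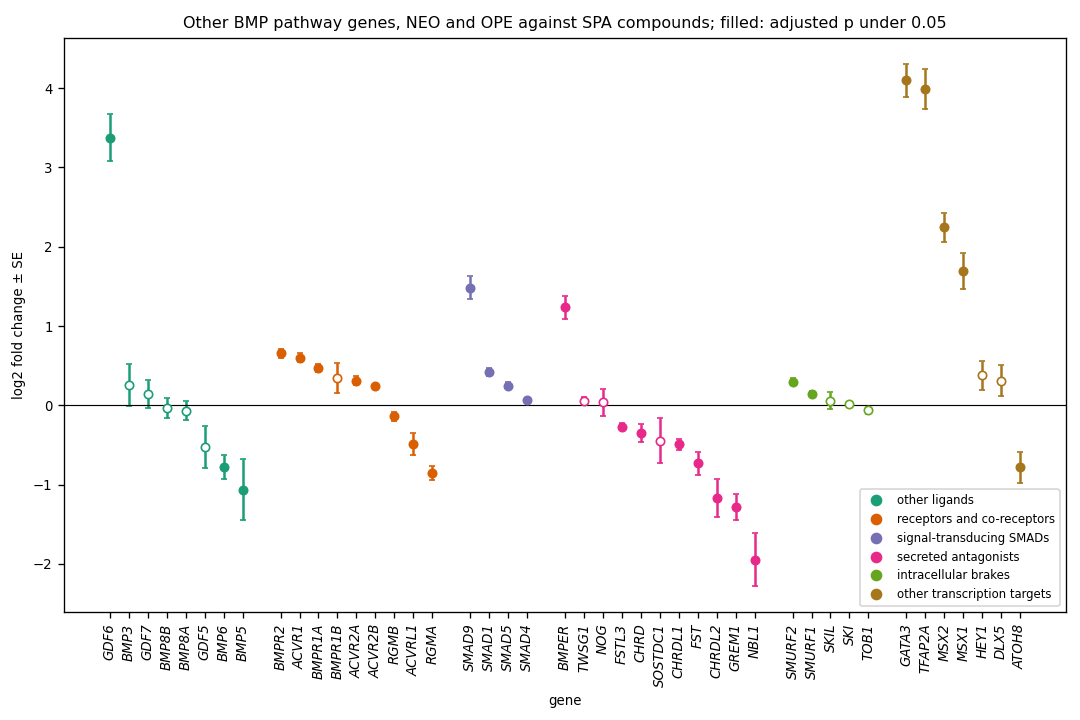
log2 fold change and SE of 44 other BMP pathway genes between the means of NEO and OPE and of SPA compounds, grouped by role and ordered by size, with filled points for an edgeR adjusted p under 0.05. The targets GATA3 (4.10) and TFAP2A (3.99) and the ligand GDF6 (3.38) are highest. The antagonist NBL1 (-1.95) is lowest, at 0.00 to 2.74 TPM in NEO and OPE libraries.

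With S9 in the 6 compounds, 6 of the 44 rose and 16 fell, where 41.3% of all genes were called. GDF6 fell by 3.07, SMAD9 by 1.20, MSX2 by 1.88, GATA3 by 2.52 and TFAP2A by 2.43, so each of these moved opposite to its difference between the families, and both comparisons share the 12 NEO and OPE libraries without S9. In DMSO_S9 against DMSO, 8 rose and 6 fell, where 45.7% of all genes were called. Between OPE and NEO compounds, 0 of the 44 passed.

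During differentiation in solvent, 45 of the 46 were tested, 19 rose and 6 fell, a share near the 58.2% of all genes called. Of the secreted antagonists, NOG, which traps BMP outside the cell, rose from 0.05 TPM in both day 0 libraries to 5.99 and 8.41 TPM (edgeR adjusted p = 1.64e-07), and CER1, which traps BMP and NODAL, fell from 10.8 and 11.6 TPM to 0.09 and 0.16 TPM (edgeR adjusted p = 1.14e-07). Folds are not given for these because their low groups are near the counting floor. Among targets DLX5 rose by 8.03, to 70.1 and 112 TPM, TFAP2A by 4.49, GATA3 by 3.73 and MSX2 by 3.58. Receptor genes that rose included RGMA (1.77) and ACVR2B (1.04), and SMAD9 rose by 1.58 and SMAD5 by 1.29. ACVRL1 also passed upward, from 0.06 and 0.18 TPM at day 0 to 0.62 and 0.85 TPM, too near the counting floor for a fold. The ligand GDF5 was listed at 0 in both day 0 libraries and at 0.17 and 0.28 TPM in DMSO. Of the intracellular brakes, TOB1 rose by 1.37 and SKIL fell by 1.78.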

How the data were processed

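RNA was sequenced from 48 H9 libraries in 24 groups of 2, grouped by the labels. Poly(A) RNA was captured, primed with random hexamers and sequenced on an MGI instrument, per the labels' protocols. Per the submitters' processing notes the genome build was GRCh38.p13. The aligner, the counting tool and strandedness are not stated in the labels or headers, so reads of a gene and of an antisense partner could be mixed. Expected counts and TPM values were deposited by the authors for each library, per the file headers. TPM served for levels only, with no test; it is scaled to the library total and the fitted differences by TMM, so the sizes can differ.

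The expected counts were rounded, which changed 43.4% of values, and tested with edgeR 4.0.16 in R 4.3.3 (quasi-likelihood, TMM, filterByExpr), 1 coefficient per group. The 46 day 8 libraries formed 1 fit of 16115 genes, and all 48 libraries the fit for D0, of 16211 genes. P-values were adjusted by Benjamini-Hochberg over all genes. DESeq2 1.42.0, other size factors, no filter, fits of the compared groups, a replicate block and leaving out each library were alternatives. The tests were tried on simulated counts. No 2 libraries were identical.

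The 10 genes, the pathway and marker lists and the tests were chosen with earlier results of these data known. All 10 genes were named; list genes were named if they passed in DMSO against D0 or NEO and OPE against SPA, up to 4 per role by p, and likeness used group-mean log2 CPM (prior count 2).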

Additional observations from a re-analysis of the deposited data

Results flagged for a closer look

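The effect of S9 differed between the 6 compounds and the solvent in 3 of the 10 genes, by an interaction term in the edgeR fit. The log2 difference in compounds minus that in solvent was -1.26 for BMP4 (edgeR adjusted p = 0.00397), which fell by 1.57 with S9 in compounds and differed by -0.31 in solvent. It was -1.07 for ID3 (edgeR adjusted p = 0.00629), which fell by 0.79 in compounds and differed by 0.28 in solvent. It was 0.73 for BMP7 (edgeR adjusted p = 3e-04), which differed by 0.12 in compounds and fell by 0.60 in solvent. All 3 comparisons use both DMSO_S9 libraries, which stood apart from the other day 8 libraries, and the part of that in the result was not tested. Of all genes, 50.9% passed the same test.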

How the results depend on the processing

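None of the 120 called results of the 10 genes reversed its direction under any alternative run; other genes were not followed through the alternatives. All 120 kept their side of the threshold with DESeq2's size factors, DESeq2's own test, no filter on low counts and the replicate block. With only the compared groups in the fit 9 of the 120 were lost. In day 8 comparisons of 2 libraries against 2, leaving out 1 library at a time gave 364 results for called genes, of which 104 lost the call; the lone library left in a group was assumed to vary like the other groups. None of 32 such results was lost for DMSO against D0, and none of 576 for means of several groups. The calls in DMSO_S9 against DMSO went from 5 to 9 with only the groups compared, a setting with fewer libraries to estimate the spread, and ran from 1 to 5 without 1 library. Calls in the 6 NEO and OPE compounds ran from 28 (without DMSO replicate 1) to 44 without 1 library, and were 39 with only the groups compared. The cause of these shifts was not tested. For means of several groups, leaving out 1 library kept its partner, so no compound left the mean.

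Groups shared replicate numbers. Same-numbered libraries deviated together (correlation over 0.1) in 73 of 253 pairs of day 8 groups, with a median of -0.01, and in 37 of 45 pairs of DMSO and SPA groups, with a median of 0.27 and a lowest value of -0.10. Because not every pair passed and the labels tie the numbers to nothing, they were not taken as pairs. With the replicate block the count was 45 for NEO and OPE compounds, 7 for DMSO_S9 and 43 for compounds with S9, and 0 for SPA compounds, also in a fit of DMSO and the SPA groups. That fit, and one with neither DMSO_S9 library (62 of 62 calls kept), were chosen after seeing the data. With 2 libraries per group, changes the size of the BAMBI interval in SPA compounds were not detectable.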
